A study of Mus musculus with 12 samples.

Results

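The genes described here encode the matrix metalloproteinases (Mmp), their tissue inhibitors (Timp), and the related metalloproteinases of the Adamts and Adam families. Members were all genes with a single annotated symbol of the form Mmp, Timp, Adamts or Adam followed by a number, and each gene was read from its probe set of highest mean. The rule found 78 of the 19936 genes named on the arrays, which were 22 Mmp, 4 Timp, 18 Adamts and 34 Adam genes. Adamts2 and Mmp15 are not analysed here.

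Expression was measured in frozen mouse kidney on 12 arrays, 3 per group, each from the RNA of 1 mouse aged 6 months. FVB mice carried wild-type D6 and had no diabetes. D6 mice also had no diabetes and were homozygous for a deletion of D6, the product of Ackr2, which takes up and degrades inflammatory CC chemokines without passing on a signal. OVE mice had intact D6 and were diabetic. They are the OVE26 line, in which a calmodulin transgene under an insulin promoter damages pancreatic beta cells, so their diabetes is of the insulin-deficient kind. OVE-D6 mice were diabetic and homozygous for the deletion. All 4 groups were on the FVB strain. The deletion came from mice on C57BL/6 and, per the labels, was bred into FVB for at least 10 generations, so both knockout groups may carry C57BL/6 sequence near it. The study asked how loss of D6 altered renal gene expression in diabetes.

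Mmp proteins are zinc endopeptidases that cut collagens, laminins, elastin and other matrix proteins, and are made as inactive precursors. Timp proteins bind their active site one to one. Adam proteins are mostly membrane-bound and shed the outer parts of cytokines, growth factors and adhesion molecules, while Adamts proteins are secreted and cut procollagens, proteoglycans and von Willebrand factor. In the kidney the balance of these proteases and inhibitors is known for its part in the turnover of basement membrane and interstitial matrix, which accumulate in diabetic nephropathy.

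Values are the deposited log2 probe-set values, and a difference of 1 on this scale is a doubling. Differences are given ± SE from limma, with p-values adjusted by Benjamini-Hochberg over all 16480 genes tested and called at an adjusted p under 0.05. A gene entered the test where 3 or more arrays placed it above that array's 25th percentile. This left 55 members, namely 16 Mmp, 4 Timp, 18 Adamts and 17 Adam genes. Of these, 46 passed on all 12 arrays and 9 on 3 to 11 arrays, among them Mmp19 on 5 arrays. The 23 members not tested had means from 3.06 to 5.28. Olfactory receptor genes, which kidney was taken to express little, gave a reference for background. The 95th percentile of the mean values of 1027 such genes was 5.93. In at least 1 group 44 members had a mean above it, which were 11 Mmp, 3 Timp, 15 Adamts and 15 Adam genes. Of 5 testis and germ cell markers, 3 had means under this level in every group. The other markers, Prm2 (6.64 to 7.26) and Tnp2 (7.08 to 7.57), lay above it on every kidney array. A mean above background therefore does not by itself show that a gene is expressed.

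The array medians lay between 6.84 and 6.93. Proximal tubule markers averaged 12.32 to 12.80 on every array, so the tubule markers that define the labelled tissue were present. Ackr2 read 6.74 to 7.04 on the 12 arrays, and its values on arrays labelled D6 knockout overlapped those labelled wild type (D6 minus FVB, -0.10 ± 0.08, adjusted p = 1). Which part of the gene was deleted is not given in the sources used here, so this probe set does not check the genotype, and the groups rest on the labels. Along the first principal component of all genes (35.9% of the variance), OVE replicates 1 and 2 scored 27.0 and 29.4 while OVE replicate 3 scored 6.9, next to the highest of the other 9 arrays (-15.1 to 5.2). OVE-D6 replicate 3 stood apart in adrenal markers, with a mean of 8.85 against 5.35 to 5.63 on the other 11 arrays. Several results for the members are given with and without these 2 arrays. The calls of listed genes and cell type markers are given with all 12 arrays only. The number of arrays limits the precision, and p-values cover only the spread between these arrays.

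In diabetic kidneys with intact D6, 2 of 4 Timp genes, 5 of 16 tested Mmp genes, 3 of 17 Adam genes and 1 of 18 Adamts genes were higher. Against FVB, 11 of the 55 tested members were higher in OVE, where 4.90% of all tested genes were, and 2 were lower, where 2.38% were. The 11 were Timp1, Timp2, Mmp2, Mmp9, Mmp12, Mmp14, Mmp19, Adamts4, Adam11, Adam19 and Adam22, and the 2 were Adamts8 and Adam1b. The median difference over the 55 was 0.13, beside -0.02 over all genes, and the range ran from -0.54 to 1.88. The 3 arrays of OVE did not overlap the 3 of FVB for 26 of the 55, beside 27.1% of all genes.

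**Figure D1:**
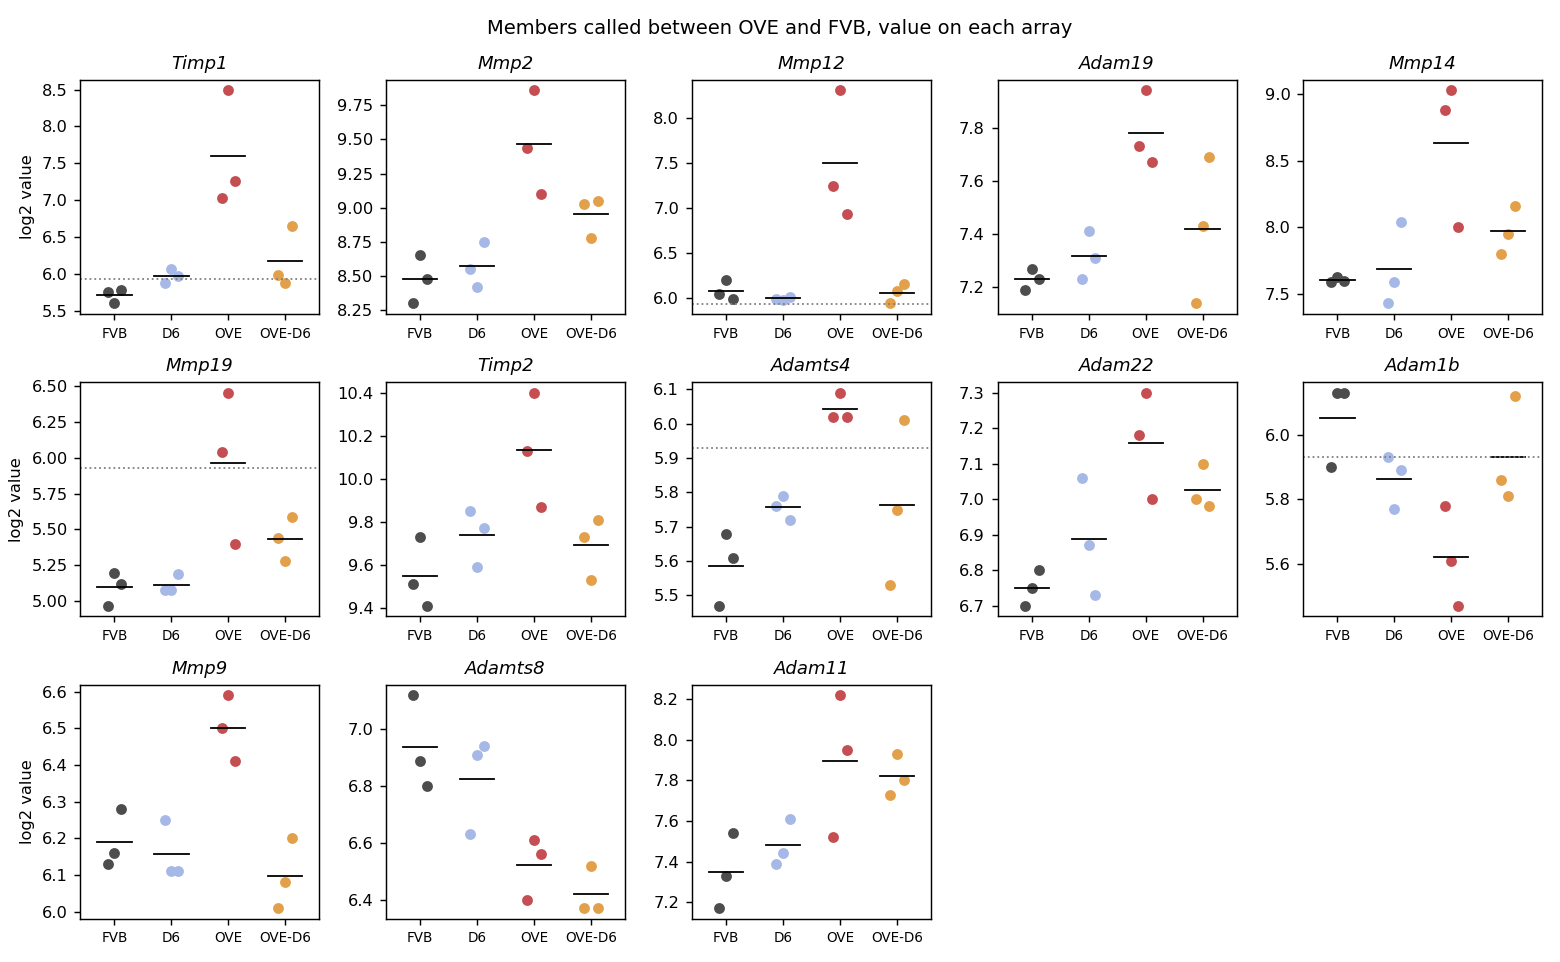
Log2 value (vertical axis) of the 13 members called between OVE and FVB on each of the 12 arrays. Points are arrays, horizontal lines are group means of 3 arrays, and the dotted line marks the background level of 5.93 where it falls in the panel. The OVE arrays of Timp1 (7.03 to 8.49) and Mmp12 (6.93 to 8.31) sit above all other arrays.

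The inhibitors differed among themselves. Timp1, the inducible and broadly acting inhibitor, had the largest fitted difference of any tested member. Timp1 read 5.75, 5.60 and 5.78 on the FVB arrays, 5.87, 6.07 and 5.97 on D6, 7.03, 8.49 and 7.26 on OVE and 5.98, 5.88 and 6.65 on OVE-D6 (log2 values of replicates 1, 2 and 3). All 3 OVE arrays were above the other 9, and the FVB mean of 5.71 was under background, so the size of the difference is not measured exactly. Timp1 rose by 1.88 ± 0.30 in OVE (log2, adjusted p = 0.00545), and its range over the 12 arrays, 2.89 log2 units, was the widest among all 78 members.

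Timp2 inhibits Mmp proteins and, bound to Mmp14 at the cell surface, takes part in activating the Mmp2 precursor. Timp2 read 9.51, 9.73 and 9.41 on the FVB arrays, 9.85, 9.59 and 9.77 on D6, 10.13, 10.40 and 9.87 on OVE and 9.73, 9.53 and 9.81 on OVE-D6. The OVE arrays were all above the FVB, D6 and OVE-D6 arrays, and Timp2 rose by 0.59 ± 0.13 (adjusted p = 0.0223). Timp3, the matrix-bound inhibitor that also blocks Adam17, was high on every array. Timp3 read 12.99, 12.93 and 13.04 on the FVB arrays, 13.19, 13.04 and 13.04 on D6, 12.92, 13.16 and 13.24 on OVE and 13.11, 13.14 and 13.10 on OVE-D6. The OVE and FVB arrays overlapped and the difference was 0.12 ± 0.09 (adjusted p = 0.442). Timp4 read 5.23, 5.36 and 5.48 on the FVB arrays, 5.31, 5.20 and 5.85 on D6, 5.67, 5.44 and 5.49 on OVE and 5.62, 5.04 and 5.93 on OVE-D6. Its group means were all under background, and OVE minus FVB was 0.18 ± 0.20 (adjusted p = 0.638).

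Mmp2 (gelatinase A) and Mmp14 (membrane type 1, the main activator of the Mmp2 precursor) rose alongside Timp2. Mmp2 read 8.30, 8.65 and 8.48 on the FVB arrays, 8.55, 8.42 and 8.75 on D6, 9.44, 9.86 and 9.10 on OVE and 9.03, 8.78 and 9.05 on OVE-D6. Every OVE array was above every array of the other groups, and the rise was 1.99-fold (0.99 ± 0.17, adjusted p = 0.00666). Mmp14 read 7.59, 7.63 and 7.60 on the FVB arrays, 7.43, 7.59 and 8.04 on D6, 8.88, 9.03 and 8.0 on OVE and 7.80, 7.95 and 8.16 on OVE-D6. The OVE arrays were above those of FVB, with OVE replicate 3 inside the range of D6 and OVE-D6, and the rise was 2.04-fold (1.03 ± 0.23, adjusted p = 0.0193).

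Mmp9 (gelatinase B) stayed close to background. Mmp9 read 6.13, 6.16 and 6.28 on the FVB arrays, 6.25, 6.11 and 6.11 on D6, 6.50, 6.59 and 6.41 on OVE and 6.01, 6.08 and 6.20 on OVE-D6. The OVE arrays were the 3 highest, and Mmp9 rose by 0.31 ± 0.08 (adjusted p = 0.0381). Mmp19, which cuts basement membrane proteins, was above background only in the OVE mean of 5.96. Mmp19 read 4.97, 5.20 and 5.12 on the FVB arrays, 5.08, 5.08 and 5.19 on D6, 6.04, 6.45 and 5.40 on OVE and 5.44, 5.28 and 5.59 on OVE-D6. OVE replicates 1 and 2 were highest, and OVE replicate 3 lay among the OVE-D6 arrays. It was tested because 5 arrays passed the filter, all of them diabetic, so it could be tested only through diabetic arrays and this call is not independent of the filter. Its difference was 0.87 ± 0.19 (adjusted p = 0.0207).

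Mmp12, the macrophage elastase, had the second largest fitted difference. Mmp12 read 6.04, 6.20 and 5.99 on the FVB arrays, 5.99, 5.98 and 6.01 on D6, 7.25, 8.31 and 6.93 on OVE and 5.94, 6.08 and 6.15 on OVE-D6. The OVE arrays lay from 6.93 to 8.31, and the other 9 arrays all lay between 5.94 and 6.20, close to background. Mmp12 rose 2.67-fold in OVE (1.42 ± 0.25, adjusted p = 0.00786).

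The collagenase Mmp13 went the other way without passing the test. Mmp13 read 6.77, 6.50 and 6.76 on the FVB arrays, 6.75, 6.63 and 6.88 on D6, 6.07, 6.05 and 6.28 on OVE and 6.21, 6.65 and 5.72 on OVE-D6. The OVE arrays were under all FVB and D6 arrays, and the difference was -0.54 ± 0.18 (adjusted p = 0.0889). Mmp13 was called lower with only the 2 groups compared, and also without OVE-D6 replicate 2 or without OVE-D6 replicate 3. The collagenase Mmp8 was not tested, at 3.80 to 4.29 on all arrays. Mmp11 (stromelysin 3) did not pass, at 0.10 ± 0.10 (adjusted p = 0.599).

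Mmp12 and Mmp13 lie in a run of 10 neighbouring Mmp genes on chromosome 9, in the order Mmp13, Mmp12, Mmp1b, Mmp3, Mmp1a, Mmp10, Mmp8, Mmp27, Mmp20 and Mmp7. Only these 2 of the 10 were above background, and they did not move together between OVE and FVB. Promoters of this family are known for AP-1 sites, which bind Fos and Jun proteins. In the 250 bases before each start in the RefSeq promoter table (GRCm38.p6), which matched 48 of the 78 members through 53 promoters, the AP-1 letters TGACTCA or TGAGTCA (each the other's reverse complement, so both strands were covered) occurred in 9 promoters of the members (17%). They occurred in 1466 of 32851 promoters of all genes (4.46%). Among promoters of members above background they occurred in 3 of 30, and of called members in 2 of 10. The 3 are shown because they belong to members above background, followed by those of Mmp3 and Mmp10 from the Mmp run, which were not above it. Each is 100 bases upstream of the start, on the gene's strand, with the AP-1 letters in capitals.
Mmp12, chr9:7347274-7347373, plus strand: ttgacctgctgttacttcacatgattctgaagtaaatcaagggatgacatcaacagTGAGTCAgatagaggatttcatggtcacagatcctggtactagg
Mmp13, chr9:7272414-7272513, plus strand: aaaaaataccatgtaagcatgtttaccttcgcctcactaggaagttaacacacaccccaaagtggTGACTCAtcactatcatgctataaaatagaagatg
Adam19, chr11:46055807-46055906, plus strand: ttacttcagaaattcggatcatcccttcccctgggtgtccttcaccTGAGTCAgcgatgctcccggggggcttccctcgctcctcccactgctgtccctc
Mmp3, chr9:7445722-7445821, plus strand: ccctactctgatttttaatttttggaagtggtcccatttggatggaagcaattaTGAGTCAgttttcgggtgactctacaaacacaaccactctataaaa
Mmp10, chr9:7502233-7502332, plus strand: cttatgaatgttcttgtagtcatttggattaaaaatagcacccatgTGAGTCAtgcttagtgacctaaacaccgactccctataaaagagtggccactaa
The letters lie 44 bases before the start of Mmp12, 35 before Mmp13, 131 before Adam19, 46 before Mmp3 and 63 before Mmp10. For Mmp12 and Adam19 this is the second of the starts listed, and the other starts have no such letters. The same letters therefore stood before genes that rose (Mmp12 and Adam19), a gene that did not pass (Mmp13) and genes not above background (Mmp3, 5.03 to 5.39, and Mmp10, 5.57 to 5.93). A match is a description of sequence and not a measured site. Mmp1a, Mmp1b and Mmp7 of this run, and Adam29, hold the letters too.

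Of Adamts1, Adamts4, Adamts5 and Adamts15, which cut proteoglycans, all had positive differences between OVE and FVB and only Adamts4 was called. Adamts4 (aggrecanase 1) was above background only in OVE. Adamts4 read 5.47, 5.68 and 5.61 on the FVB arrays, 5.76, 5.79 and 5.72 on D6, 6.02, 6.09 and 6.02 on OVE and 5.53, 5.75 and 6.01 on OVE-D6. The OVE arrays were above all others, with OVE-D6 replicate 3 at 6.01 next, and Adamts4 rose by 0.46 ± 0.11 over FVB (adjusted p = 0.024), from an FVB mean under background. Adamts1 was at 9.93 to 10.35 in OVE and 9.08 to 9.87 in FVB, a difference of 0.67 ± 0.22 that did not pass (adjusted p = 0.0804). Adamts5 (0.31 ± 0.17, adjusted p = 0.28) and Adamts15 (0.22 ± 0.12, adjusted p = 0.289) did not pass either.

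Adamts8, whose known substrates include aggrecan, was lower. Adamts8 read 7.12, 6.89 and 6.80 on the FVB arrays, 6.63, 6.91 and 6.94 on D6, 6.40, 6.61 and 6.56 on OVE and 6.37, 6.52 and 6.37 on OVE-D6. The 6 diabetic arrays (6.37 to 6.61) were all under the 6 non-diabetic arrays (6.63 to 7.12). In OVE, Adamts8 fell by 0.41 ± 0.11 (log2, adjusted p = 0.0381). The Adamts genes that did not pass, among them Adamts9 (-0.16 ± 0.07, adjusted p = 0.225), ranged from -0.26 to 0.67. Adamts3, Adamts9 and Adamts17 had several probe sets, over which OVE minus FVB ran from -0.37 to 0.02, -0.23 to 0.07 and -0.27 to -0.04.

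The main sheddases Adam9, Adam10, Adam15 and Adam17 were measured well above background and were not called with the main settings. Adam10, which cleaves Notch and cadherins, read 9.71 to 9.88 in FVB and 9.76 to 9.96 in OVE (0.07 ± 0.08, adjusted p = 0.645). Adam17, which releases tumour necrosis factor, read 8.94 to 9.06 in FVB and 8.94 to 9.25 in OVE (0.12 ± 0.09, adjusted p = 0.452). Adam9 was likewise close to 0, at -0.01 ± 0.08 (adjusted p = 0.975). Adam12, nearer background at 6.65 to 7.44 over all arrays, was at 0.13 ± 0.14 (adjusted p = 0.626). Adam15 was just outside the threshold, at 9.37 to 9.61 in OVE against 9.10 to 9.26 in FVB (0.33 ± 0.09, adjusted p = 0.0509).

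Adam19, a sheddase of neuregulins, passed the test. Adam19 read 7.19, 7.27 and 7.23 on the FVB arrays, 7.23, 7.41 and 7.31 on D6, 7.73, 7.94 and 7.67 on OVE and 7.14, 7.43 and 7.69 on OVE-D6. The OVE arrays were all above FVB and D6, and 1 OVE-D6 array at 7.69 reached them. Adam19 rose by 0.55 ± 0.12 (adjusted p = 0.0193). Adam8, a leukocyte protease, had a larger difference and a larger spread. Adam8 read 6.34, 6.22 and 6.14 on the FVB arrays, 6.33, 6.23 and 5.98 on D6, 6.79, 7.84 and 6.46 on OVE and 6.07, 6.12 and 6.12 on OVE-D6. OVE replicate 2 was highest, and the difference of 0.80 ± 0.25 did not pass (adjusted p = 0.0749).

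Adam22 and Adam11 lack the catalytic zinc site and are known as binding partners of secreted LGI proteins in neurons. Adam22 read 6.70, 6.75 and 6.80 on the FVB arrays, 7.06, 6.87 and 6.73 on D6, 7.18, 7.30 and 7.00 on OVE and 7.00, 7.10 and 6.98 on OVE-D6. Adam22 rose by 0.41 ± 0.10 (adjusted p = 0.0273), with no overlap of OVE and FVB. Adam11 read 7.17, 7.33 and 7.54 on FVB and 7.52, 8.22 and 7.95 on OVE, so 1 array overlapped, and its rise of 0.55 ± 0.15 was the call nearest the threshold (adjusted p = 0.0487). Adam1b, known from sperm, lay near background. Adam1b read 5.90, 6.13 and 6.13 on the FVB arrays, 5.93, 5.77 and 5.89 on D6, 5.78, 5.61 and 5.47 on OVE and 5.86, 5.81 and 6.12 on OVE-D6. All 3 OVE arrays were under those of FVB and overlapped D6. It fell by 0.43 ± 0.11 on the log2 scale (adjusted p = 0.0314), and its chromosome 5 neighbour Adam1a was at 0.04 ± 0.08 (adjusted p = 0.819).

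**Figure D2:**
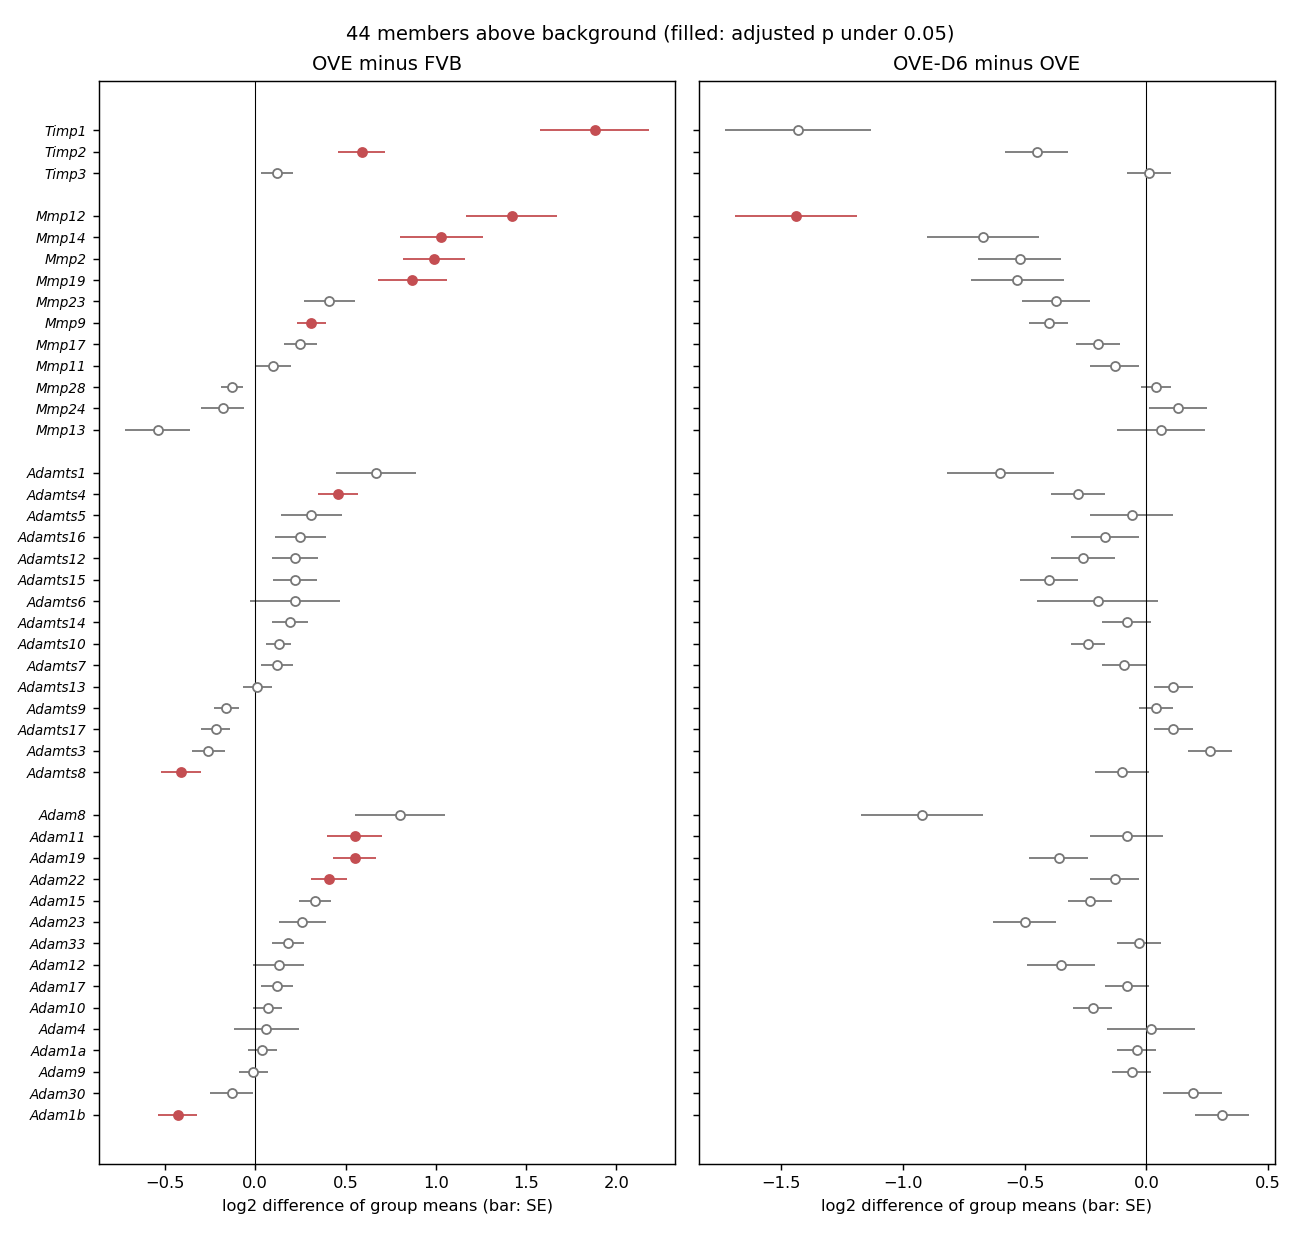
Log2 difference of group means (horizontal axis, bars are SE, 3 arrays per group) for the 44 members above background, ordered within the Timp, Mmp, Adamts and Adam families. Left, OVE minus FVB, with 13 filled points called at an adjusted p under 0.05. Right, OVE-D6 minus OVE, where only Mmp12 is filled (-1.44 ± 0.25).

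The calls rested on the arrays to different degrees, and the share of all tested genes called moved with them. Without OVE replicate 2, 3 members were called between OVE and FVB (Timp1, Mmp2 and Mmp12, all higher, beside 1.63% of all genes higher). The same 3 were called without FVB replicate 3 (1.88% of all genes higher). Without FVB replicate 1, 4 were higher and 1 lower (2.74% and 1.33% of all genes), without FVB replicate 2, 5 were higher and 0 lower (2.11% and 0.783%), and without OVE replicate 1, 6 were higher and 1 lower (3.00% and 1.34%). Without OVE replicate 3, which lay nearest the non-diabetic arrays, 14 were higher and 2 lower (7.57% and 3.97% of all genes), and 11 of these 16 were among the 13. Mmp14 was then at 1.34 ± 0.16 (adjusted p = 0.000302).

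Cell type markers also differed between OVE and FVB. The 12 macrophage markers averaged 7.17 to 7.48 on FVB, 7.54 to 7.79 on D6, 7.96 to 9.09 on OVE and 7.43 to 7.65 on OVE-D6, and 11 of the 12 were higher in OVE than in FVB (median 1.41). The 10 fibroblast and myofibroblast markers averaged 8.46 to 8.82 on FVB, 8.60 to 8.82 on D6, 9.18 to 9.71 on OVE and 8.76 to 9.25 on OVE-D6, with 6 of 10 higher (median 0.88). Of the 8 neutrophil markers, 7 or more were under background in every group. Csf3r, 1 of the 4 tested, was higher in OVE (0.60 ± 0.13, adjusted p = 0.0191). The median of the 4 was -0.12, and only Csf3r was above 0. Of the T and NK cell markers 1 of 5 tested was higher (median 0.54). Loop and distal tubule markers had 3 of 6 lower (median -0.32), proximal tubule markers 2 of 6 lower (median -0.17) and podocyte markers 1 of 5 lower (median -0.24). In whole kidney, a change in the number of cells of a type and a change in RNA per cell cannot be told apart. The part of these cells in the differences of the members was not tested.

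**Figure D3:**
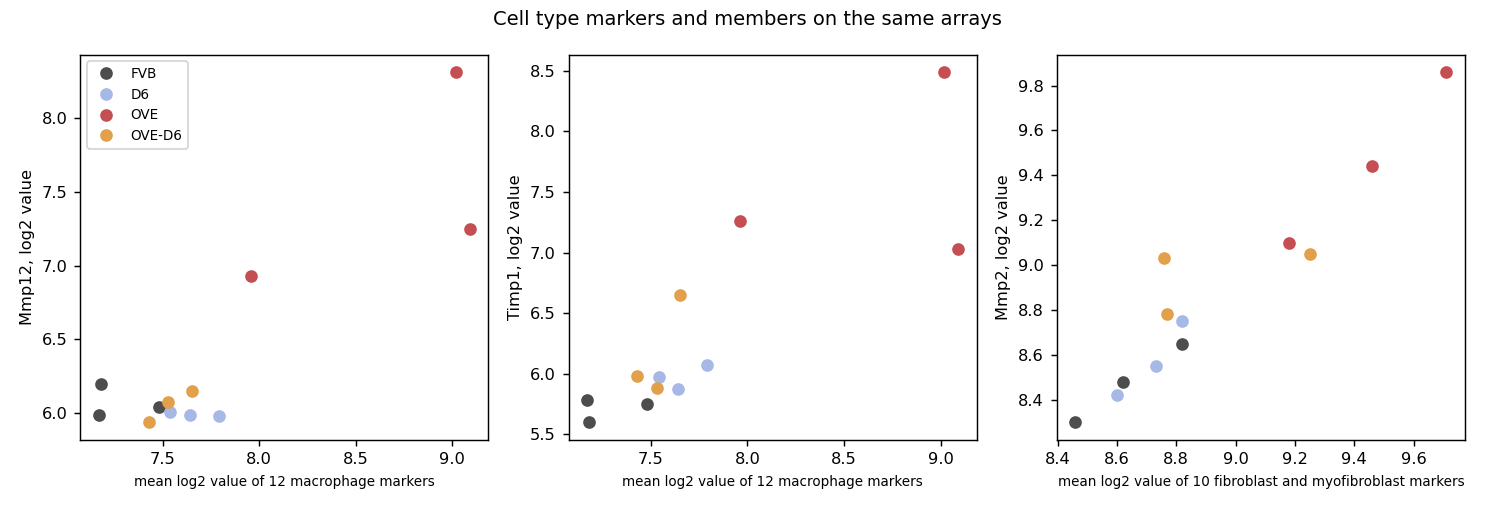
Log2 value of Mmp12, Timp1 and Mmp2 (vertical axes) against the mean log2 value of cell type markers on the same array (horizontal axes, 12 macrophage markers for Mmp12 and Timp1, 10 fibroblast and myofibroblast markers for Mmp2). Each point is 1 of 12 arrays, coloured by group. The 3 OVE arrays have the 3 highest vertical values in each panel, and OVE-D6 macrophage means (7.43 to 7.65) lie within the span of FVB and D6.

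Comparing the diabetic groups asks what loss of D6 went with in diabetes. Of the 55 tested members, 0 were higher in OVE-D6 than in OVE (0.0485% of all genes) and 1 was lower, Mmp12 (0.182% of all genes). Mmp12 fell by 1.44 ± 0.25 on the log2 scale, a 2.71-fold lower value (adjusted p = 0.0457), and its OVE-D6 arrays, 5.94 to 6.15, overlapped those of FVB and D6 (5.98 to 6.20). The median over the 55 was -0.09, beside 0.01 over all genes. The groups did not overlap for 18 members, beside 17.6% of all genes.

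The members next to the threshold included 2 that had risen in OVE, Timp1 and Mmp9. Timp1 was at -1.43 ± 0.30 (adjusted p = 0.079), Mmp9 at -0.40 ± 0.08 (adjusted p = 0.0766), Adam23 at -0.50 ± 0.13 (adjusted p = 0.131) and Adam8 at -0.92 ± 0.25 (adjusted p = 0.145), with no overlap for any of them. None of these 4 passed. Timp2 (-0.45 ± 0.13, adjusted p = 0.166), Mmp2 (-0.52 ± 0.17, adjusted p = 0.19) and Mmp14 (-0.67 ± 0.23, adjusted p = 0.209) did not pass. All 11 members that rose in OVE against FVB had a negative sign here, but both comparisons use the same OVE arrays.

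This comparison depended on single arrays. Without OVE replicate 3, 10 members were lower, where 3.32% of all tested genes were, and 0 were higher, where 0.734% were. The 10 were Timp1, Timp2, Mmp2, Mmp9, Mmp12, Mmp14, Mmp19, Mmp23, Adam8 and Adam23, with Timp1 at -1.59 ± 0.33 (adjusted p = 0.0201), Mmp2 at -0.70 ± 0.15 (adjusted p = 0.0226) and Mmp12 at -1.72 ± 0.22 (adjusted p = 0.000949). Without OVE-D6 replicate 3, the array with adrenal signal, none was called (0.0910% of all genes lower), with Mmp12 at -1.49 ± 0.29 and Timp1 at -1.67 ± 0.31 (adjusted p = 0.0774 for each). Without OVE replicate 2 Mmp12 alone was called (-1.03 ± 0.11, adjusted p = 0.00788), beside 0.0303% of all genes lower. Leaving out any other single array, of any group, left no member called. With all 12 arrays, 3 of the 12 macrophage markers were lower in OVE-D6 (Cd14, Mrc1 and Lyz2), and the list's median was -1.22. Without OVE-D6 replicate 1, only 1 of all tested genes was lower, so these 3 could not all keep their calls. Of the fibroblast markers none of 10 passed, with a median of -0.52.

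**Figure D4:**
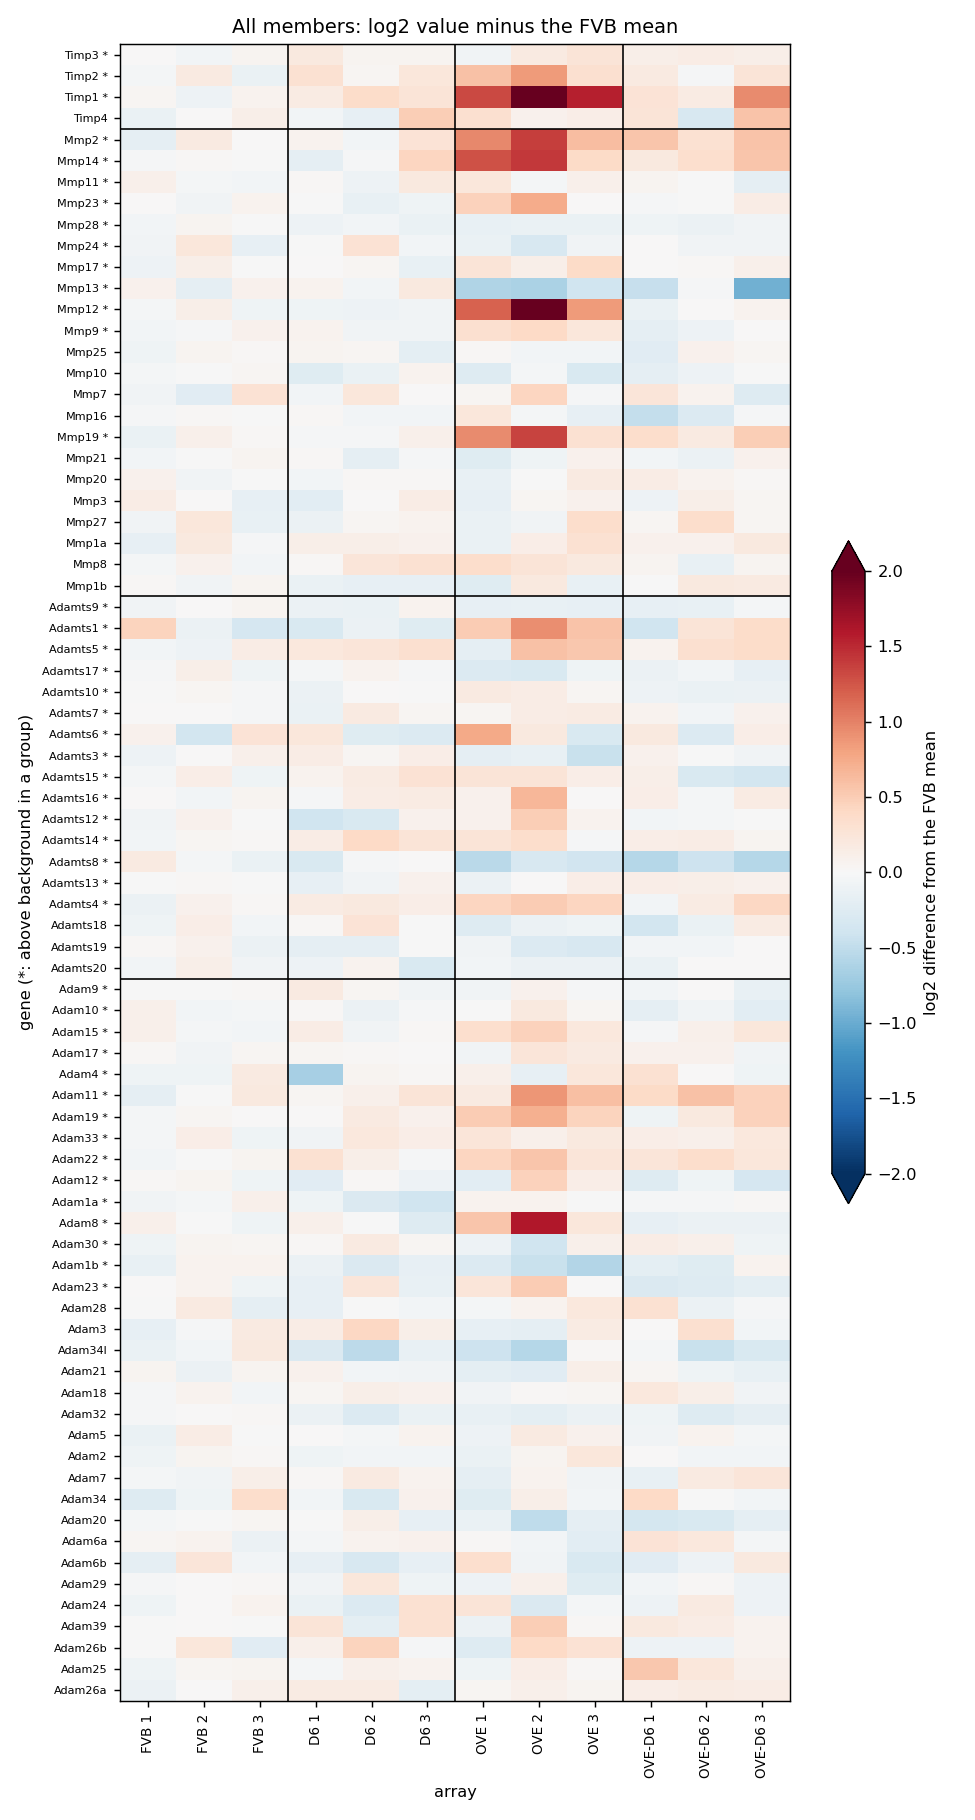
Log2 value minus the FVB mean for all 78 members (rows, by family and mean level) on the 12 arrays (columns). Colours stop at a difference of 2 in either direction, and an asterisk marks members above background in a group. The strongest red cells are those of Timp1 and Mmp12 on OVE replicate 2 (8.49 and 8.31 before the FVB mean is taken off).

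Without diabetes, the D6 genotype went with no called member. Between D6 and FVB, 0 of the 55 were higher (0% of all genes) and 0 lower (0.0121%) by limma, and 2 had an unadjusted p under 0.05. Differences ran from -0.25 (Adam1a) to 0.27 (Adamts14), with a median of 0.02 beside 0.00 over all genes. The groups did not overlap for 7 members, beside 9.79% of all genes. Timp1 was at 0.26 ± 0.30, Mmp12 at -0.09 ± 0.25 and Mmp2 at 0.10 ± 0.17 (adjusted p = 1 for each).

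Within the D6 knockouts, OVE-D6 against D6 gave 0 members higher (0.182% of all genes) and 0 lower (0.103%), with 6 at an unadjusted p under 0.05 by limma. The range was -0.56 (Mmp13) to 0.38 (Mmp2), the median 0.00 beside -0.01 over all genes, and 7 members did not overlap, beside 16.4% of all genes. Mmp13 read 5.72 on OVE-D6 replicate 3, the array with adrenal signal, against 6.21 and 6.65 on OVE-D6 replicates 1 and 2. This comparison shares no array with OVE against FVB. Of the 11 members that rose there, 8 were above 0 here, 2 were below 0, and Adamts4 rounded to 0.00. The 11 lay between -0.06 and 0.38. Without OVE-D6 replicate 3, 6 of the 11 were above 0 and 5 below, between -0.12 and 0.34, and Timp1 turned to -0.04 ± 0.31 and Adam19 to -0.03 ± 0.11 (adjusted p = 0.988 and 0.972). With all arrays, Timp1 was at 0.20 ± 0.30 (adjusted p = 0.879), Mmp12 at 0.07 ± 0.25 (adjusted p = 0.966) and Mmp14 at 0.28 ± 0.23 (adjusted p = 0.743). Adamts8 was at -0.41 ± 0.11 (adjusted p = 0.166), the same size as in the wild types, where it passed, and at -0.38 ± 0.12 without OVE-D6 replicate 3 (adjusted p = 0.42).

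**Figure D5:**
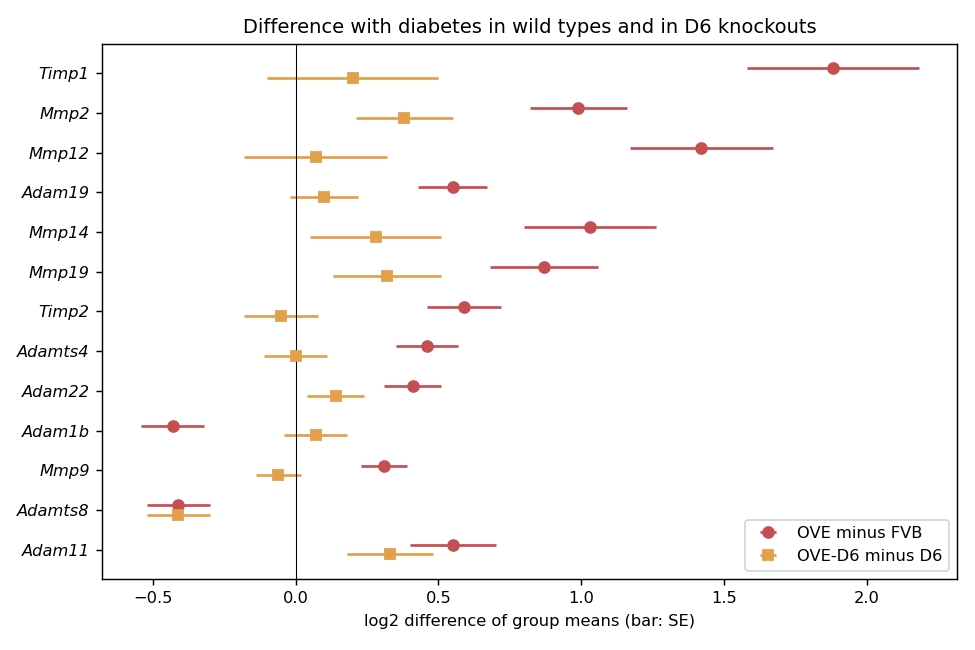
Log2 difference with diabetes (horizontal axis, bars are SE, 3 arrays per group) for the 13 members called between OVE and FVB, in wild types (OVE minus FVB, circles) and in D6 knockouts (OVE-D6 minus D6, squares). Timp1 is at 1.88 and 0.20, Mmp12 at 1.42 and 0.07, and Adamts8 at -0.41 in both.

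Whether the diabetes difference itself differed between genotypes was tested as an interaction, (OVE-D6 minus D6) minus (OVE minus FVB). It called 0 members in either direction (0% of all genes each way), with 14 members at an unadjusted p under 0.05 by limma. The largest values were Timp1 at -1.69 ± 0.43 (adjusted p = 0.243) and Mmp12 at -1.35 ± 0.35 (adjusted p = 0.254). Adamts8, with 0.01 ± 0.15 (adjusted p = 0.997), had the smallest of the 13. The median over the 55 was -0.12, beside 0.01 over all genes. Without OVE replicate 3, 4 members were called, all negative, where 2.14% of all genes were, and 0 positive, where 0.146% were. They were Mmp12 (-1.64 ± 0.29, adjusted p = 0.0119), Mmp14 (-1.06 ± 0.21, adjusted p = 0.0205), Mmp19 (-0.83 ± 0.17, adjusted p = 0.027) and Timp2 (-0.77 ± 0.17, adjusted p = 0.0391). Mmp19 had entered the test only through diabetic arrays, so its calls here and between OVE-D6 and OVE are not independent of the filter. No other left-out array gave a call.

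Between OVE-D6 and FVB, 0 members were higher (0.328% of all genes) and 0 lower (0.243%) by limma, with 6 at an unadjusted p under 0.05. The groups did not overlap for 17 members, beside 20.9% of all genes. Adamts8 was nearest, at -0.52 ± 0.11 (adjusted p = 0.0561), and at -0.49 ± 0.12 without OVE-D6 replicate 3 (adjusted p = 0.228). Mmp2 was at 0.47 ± 0.17 (adjusted p = 0.245) and Timp1 at 0.46 ± 0.30 (adjusted p = 0.584), the latter at 0.22 ± 0.31 without OVE-D6 replicate 3 (adjusted p = 0.894).

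Genes that act with the members were taken from lists, whose counts stand beside the shares of all genes given above. Between OVE and FVB these were 4.90% for higher and 2.38% for lower calls, so a single call in a list of 8 to 12 genes is near the background. Some listed genes, among them Egf, Lrp2 and Dcn, are also cell type markers, so their calls are counted in both places. The list of plasminogen and serine protease activators holds proteases grouped as activators of Mmp precursors, and the urokinase receptor Plaur. Of 10 tested, 1 was higher in OVE than in FVB and none was lower. The call was that of the receptor Plaur (0.78 ± 0.14, adjusted p = 0.00888), and no protease of the list was called. The other inhibitors and clearance receptors had 3 of 13 higher, namely the Mmp2-binding Thbs2 (1.05 ± 0.18, adjusted p = 0.00786), the clearance receptor Lrp1 (0.64 ± 0.11, adjusted p = 0.00859) and the alpha-macroglobulin Pzp (0.59 ± 0.15, adjusted p = 0.0387), and 1 lower, the tubular uptake receptor Lrp2 (-0.35 ± 0.08, adjusted p = 0.0269). Of 2 tested inhibitors of plasminogen activation Serpinb6a, an intracellular serpin, was higher (0.67 ± 0.12, adjusted p = 0.00752). Among 12 other zinc metalloproteinases of kidney and matrix 0 were higher and 1 was lower, neprilysin (Mme, -0.47 ± 0.12, adjusted p = 0.04). Of 4 ADAMTS-like genes Adamtsl4 was higher (0.34 ± 0.09, adjusted p = 0.0496).

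Matrix substrates had 7 of 26 higher and 2 lower in OVE (median 0.22). Fibronectin (Fn1) was at 1.36 ± 0.24 (adjusted p = 0.00752) and Dcn at 0.91 ± 0.20 (adjusted p = 0.0189), while the glomerular basement membrane chains Col4a3 (-0.45 ± 0.09, adjusted p = 0.0124) and Col4a4 (-0.43 ± 0.10, adjusted p = 0.0245) fell. None of the 26 passed between OVE-D6 and OVE.

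Of 22 tested substrates shed by Adam proteases, 6 rose and 2 fell in OVE against FVB. The adhesion receptor Cd44 (1.79 ± 0.27, adjusted p = 0.0043), Tnfrsf1a (0.59 ± 0.09, adjusted p = 0.00377), Cxcl16 (0.85 ± 0.13, adjusted p = 0.00527) and Sdc1 (0.51 ± 0.08, adjusted p = 0.00527) rose, and Egf (-0.69 ± 0.12, adjusted p = 0.0073) and Kl (-0.44 ± 0.09, adjusted p = 0.0176) fell. Between OVE-D6 and OVE 3 of the 22 were lower, Cd44 (-1.59 ± 0.27, adjusted p = 0.0437), Vcam1 (-1.37 ± 0.24, adjusted p = 0.0475) and Sdc1 (-0.45 ± 0.08, adjusted p = 0.0485). These 3 could not all keep their calls without OVE-D6 replicate 1, where only 1 of all tested genes was lower. Cd44 and Vcam1 are also carried by leukocytes and activated endothelium. Of 8 helpers of Adam10 and Adam17, 1 was higher, the iRhom gene Rhbdf2 (0.40 ± 0.10, adjusted p = 0.0305).

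Inducers of metalloproteinase transcription had 5 of 20 higher in OVE and 0 lower (median 0.36). They were Tgfb2 (0.87 ± 0.13, adjusted p = 0.0046), Stat3 (0.57 ± 0.10, adjusted p = 0.00799), Runx1 (0.90 ± 0.16, adjusted p = 0.00852), the AP-1 member Fosl2 (0.83 ± 0.15, adjusted p = 0.0087) and Rela (0.41 ± 0.11, adjusted p = 0.0481). Runx1 was the 1 of 20 that was lower in OVE-D6 than in OVE (-1.06 ± 0.16, adjusted p = 0.0393). This call is given with all 12 arrays only, and without OVE-D6 replicate 1 just 1 of all tested genes was lower.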

How the data were processed

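Kidney RNA of 12 mice was hybridised to Affymetrix mouse gene arrays, per the labels' protocols. The values deposited by the authors are on a log2 scale, with 1 value for each probe set on each array. How they were summarised and normalised is not given in the sources used here. They were used as deposited. Of 35556 probe sets, 21789 had 1 gene symbol in the platform annotation, 1621 several and 12146 none. Symbols were updated through the RefSeq gene table of GRCm38.p6 (21698 by gene identifier, 3 by accession, 88 kept).

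A group-means model over all 12 arrays was fitted with limma 3.58.1 in R 4.3.3 (lmFit and eBayes), giving 6 comparisons. Python 3.11.15, pandas 2.3.3 and matplotlib 3.10.9 were used for summaries and figures. The test was checked on simulated data. Members, gene lists and markers were chosen with earlier results of these data known, so their counts are descriptions. Named genes are all called members, those with the highest mean in each family, the main sheddases, gelatinases, collagenases and proteoglycanases, up to 4 members next to the threshold in each comparison that has a call, and up to 4 called genes of each list; others named were chosen after their values were seen. Replicate numbers did not pair the mice across groups. Alternatives covered scaling, filter, probe-set rule, variance model, array weights, replicate block, threshold and single arrays left out. Protein sequence features were not analysed here.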

Additional observations from a re-analysis of the deposited data

How the results depend on the processing

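No called member changed direction under any alternative. Timp1 (1.44 to 2.17) and Mmp2 (0.79 to 1.17) kept their calls between OVE and FVB in all 23 alternatives, and Mmp12 in 22 of 23 (highest adjusted p = 0.0545), while Adam11 kept its call in 6. The count of called members there, 13, was 5 with only the 2 groups compared, 3 at an adjusted p under 0.01, and 3 to 16 with single arrays left out. Quantile normalisation gave 10 higher and 3 lower, centring on array medians 9 and 3, and these scalings moved the median of all genes by at most 0.059 in size. For OVE-D6 against OVE, the 1 call became 0 with quantile normalisation, with a trended robust variance, with only the 2 groups compared and at 0.01, and 3 at 0.10, with 0 to 10 when single arrays were left out. Mmp12 kept that call in 8 of 23 alternatives, between -1.72 and -1.03. For OVE-D6 against FVB, the count of 0 became 1 (Adamts8, lower) with a filter at the 50th percentile, a trended robust variance, array weights or a threshold of 0.10, and 0 to 1 with arrays left out. The interaction gave 0 to 4. The cause of these changes was not tested, other than that leaving out arrays or groups leaves fewer arrays in the fit.

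With the replicate number as a block, 10 members were called between OVE and FVB and 0 between OVE-D6 and OVE. Of 18 same-numbered pairs of arrays, 2 deviated together with r above 0.1 (range -0.25 to 0.12), so the arrays share only a number.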

Other observations

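Many Adam genes sat near the array floor in runs of neighbours. On chromosome 8, of the run Adam18, Adam3, Adam5, Adam32 and Adam9, 1 of 5 was above background, and in the runs Adam24, Adam25, Adam20 and Adam39 and Adam26b, Adam26a, Adam34l and Adam34 none of 4 was in either. Several of these genes are known from testis. By contrast, both Adamts1 and Adamts5 on chromosome 16 and both Adamts15 and Adamts8 on chromosome 9 were above background.

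The members also varied more among the OVE mice. Over the 44 members above background the median SD of 3 arrays was 0.09 in FVB, 0.11 in D6, 0.16 in OVE and 0.10 in OVE-D6, beside 0.10, 0.10, 0.12 and 0.10 over all tested genes. These are values with no test.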
